A study of Mus musculus with 4 samples.

Results

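The cells described here were cycling basal keratinocytes of the mouse P3 digit, the digit tip with its terminal phalanx, skin and nail; the study's methods place the amputation for the digest in the P2 segment, so skin next to the tip was included. They were kept cells whose Krt5 and Krt14 UMIs together made up at least 1% of all their UMIs (unique molecular identifiers, each standing for 1 captured transcript) and that had a UMI of at least 4 of 6 genes of G2 and mitosis, namely Cenpf, Top2a, Nusap1, Mki67, Ube2c and Prc1. In all, 3094 of 93602 kept cells met this rule, out of 18232 that met the keratin limit. The libraries SAR131675, diet control, LNR and LNR control gave 911, 687, 669 and 827 of them, and values are given in this order throughout. A further 8823 basal cells had no UMI of any of the 6 genes and are called resting here.

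Each library held hindlimb digits 2 to 4 pooled from 10 female C57BL/6 mice (C57BL/6J in the study's methods) aged 6 to 8 weeks. SAR131675, an inhibitor of the lymphatic growth factor receptor VEGFR3, was fed in chow (30 mg/kg) for 8 days by the series' design text, and the diet control mice ate matched chow. The study's methods instead describe chow begun before the amputation and kept up to the end, so the length of feeding is uncertain. LNR stands for lymph node removal from one limb, and its control was labelled as untreated in one place and as sham in another; according to the study's text it was the opposite limb of the same mice. For the tip amputation itself, the study's methods name hindlimb digits 2 and 4 and do not mention the digit between them. That digit was among those pooled, so each library may also hold cells of uncut digits. Cells of cut and uncut digits cannot be told apart here, and the part of uncut digits was not tested. Because each condition had 1 library, and each library was listed as its own batch, treatment and library cannot be told apart and no test between conditions was possible. Intervals in the text are 95% intervals for counting error only and leave out the variation between animals.

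The outer skin layer is renewed by keratinocytes that rest on the basement membrane and carry the keratins KRT5 and KRT14. Before they divide, they license replication origins with the MCM helicase, copy their DNA and make histones in S phase, and then build the spindle and kinetochores for mitosis. Many genes of the last step are transcribed late in the cycle and their mRNA is scarce in resting cells, which is why they are used to mark dividing cells.

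The libraries held between 168507188 and 585284877 UMIs, and the diet pair was the more deeply sequenced. Cycling basal keratinocytes had medians of 17832, 16911, 11573 and 11015 UMIs, against 11375, 10622, 6995.5 and 6393 in resting basal keratinocytes. Their median number of genes detected was 4893, 4877, 3087 and 2969. In the diet pair the median number of genes came close to the limit of 5500 genes per cell. The median UMIs stayed well under the limit of 30000 UMIs. Those limits removed 650, 563, 38 and 30 basal cells that met the 6-gene rule, which was 41.6%, 45.0%, 5.37% and 3.5% of all such cells. The same limits removed 3.21%, 3.27%, 0.160% and 0.230% of the resting basal cells. The diet pair was therefore described without many of its deepest cycling cells, and values without the upper limits stand beside many of the results below. The 2 diet libraries shared 348 cell barcodes and the 2 LNR libraries 130, and no barcode was shared between libraries among the cycling cells. A diet and an LNR library shared at most 3 barcodes, and whether the pairs were made with the same kit version was not tested.

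The keratin limit was part of the rule, so keratin content is a description and no check of the label. The cycling cells' median share of UMIs from Krt5 and Krt14 was 1.32%, 1.39%, 1.37% and 1.38%, and in resting basal cells it was 1.44%, 1.5%, 1.44% and 1.45%. In the endothelial cells of the same libraries the median was 0.0102% in the SAR131675 library and 0 in the other 3. Trp63, which encodes the transcription factor p63 of basal epidermal cells and was not part of the rule, had 476, 516, 248 and 224 CPM (UMIs of the gene per 1000000 UMIs) in the summed cycling cells, against 41.01, 42.02, 47.4 and 54.2 in endothelial cells. Many cells lay near the keratin limit. The share was between 1% and 1.1% in 139, 99, 93 and 115 of the cycling cells, and 116, 98, 82 and 111 cells that met the 6-gene rule lay just below the limit, at 0.9% to 1%.

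Markers of other cell types were present, and those of fibroblasts, leukocytes and Schwann cells were higher in the LNR pair. Summed over the fibroblast list they reached 105, 101, 445 and 303 CPM in cycling cells and 120, 121, 605 and 515 CPM in resting cells. The leukocyte list reached 9.35, 7.89, 74.8 and 51.9 CPM, and the mural list (pericytes and smooth muscle) 8.62, 6.01, 9.32 and 54.3 CPM. Melanocyte markers reached 1.53, 2.25, 1.18 and 25.3 CPM and Schwann cell markers 2.32, 1.78, 7.44 and 18.6 CPM. Endothelial markers stayed between 4.58 and 10.9 CPM, and haemoglobin genes were lower in the LNR pair, with 557, 719, 102.6 and 265 CPM. Cells with at least 2 UMIs each of 2 or more markers of another type are called mixed here, and there were 8, 3, 58 and 61 of them among the cycling cells. That was 0.878%, 0.437%, 8.67% and 7.38%, against 1.56%, 1.04%, 7.52% and 4.98% of resting cells. The share of cycling cells, the gene counts, the list medians and the named genes of the LNR pair are therefore given with and without them.

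The 6 genes that chose the cells spanned the late cycle. Top2a, DNA topoisomerase II alpha, which untangles replicated chromosomes (ENSMUSG00000020914), had 1293, 1423, 934 and 944 CPM. Mki67, whose protein coats mitotic chromosomes (ENSMUSG00000031004), had 1033, 1318, 638 and 641 CPM. Both were higher in the diet pair than in the LNR pair. Cenpf, a kinetochore protein (ENSMUSG00000026605), had 785, 779, 577 and 575 CPM. Prc1, which bundles microtubules in the middle of the spindle (ENSMUSG00000038943), had 679, 661, 457 and 478 CPM. Ube2c, the ubiquitin-conjugating enzyme of the anaphase-promoting complex (ENSMUSG00000001403), had 547, 490.4, 498 and 484 CPM. The last of the 6, Nusap1, a spindle protein (ENSMUSG00000027306), had 491, 498, 467 and 505 CPM, and for Ube2c and Nusap1 the pairs overlapped.

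Since the rule used these genes, their levels are a description. The share of cycling cells with a Top2a UMI was 96.2%, 98.1%, 99.3% and 99.0%, and with a Ube2c UMI 84.1%, 83.7%, 88.0% and 85.0%. In endothelial cells with fewer than 4 of the 6 genes, which should mostly lack these transcripts and had a median depth over all endothelial cells of 8556, 7935, 4856 and 4761 UMIs, a Top2a UMI was found in 6.40%, 4.50%, 3.83% and 4.31%. Over the 6 genes this background ran from 0.795% to 7.27% of endothelial cells. All 6 genes were found in 67.7%, 70.5%, 73.8% and 72.7% of the cycling cells, whose median was 108, 102.5, 49.5 and 48 UMIs of the 6 genes. Cells just inside the rule, with 4 genes, numbered 151, 92, 52 and 89 and had a median of 15, 13, 13 and 10 such UMIs. Basal cells just outside it, with 3 genes, numbered 271, 215, 101 and 113 and had a median of 7, 6, 6 and 6.

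**Figure D1:**
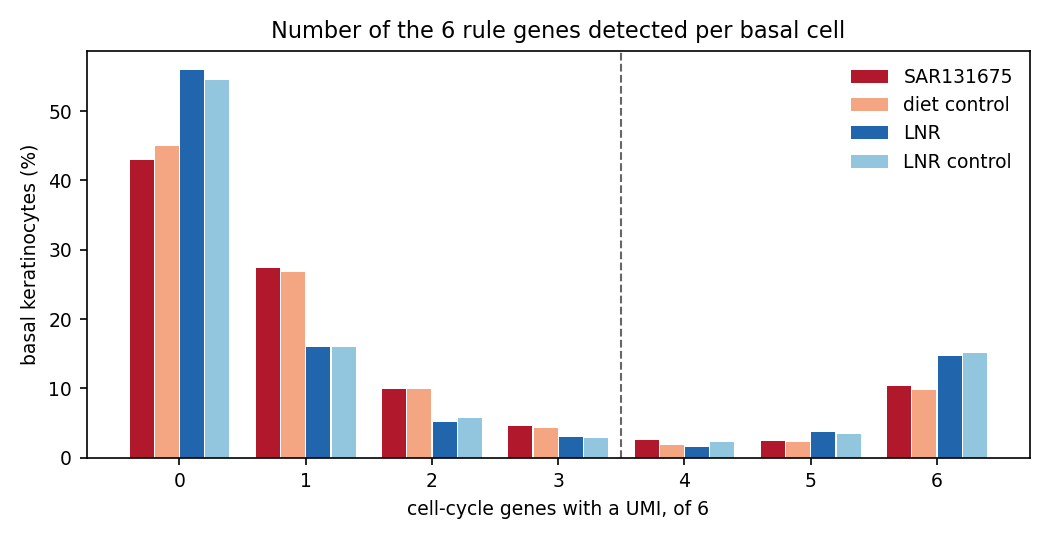
Basal keratinocytes of each library by the number of the 6 cell-cycle genes (Cenpf, Top2a, Nusap1, Mki67, Ube2c, Prc1) with at least 1 UMI (x axis), as percent of the library's basal keratinocytes (y axis); the dashed line marks the rule's limit of 4 genes. The bars drop from 0 genes to 4 or 5 and are taller again at all 6, where 617, 484, 494 and 601 cells stand.

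The start sites of these genes shared short sequence elements. Late cell-cycle promoters are known to carry a cell cycle genes homology region (CHR), which is bound by the DREAM and MuvB complexes, together with CCAAT boxes bound by NF-Y. S phase promoters are known to carry E2F sites. The search covered both strands of the 300 bases from 250 before to 50 after each start in RefSeq (GRCm38.p6), with the letters TTTGAA or TTCGAA for the CHR, CCAAT for the CCAAT box, and TTTGGCGC, TTTCGCGC or TTTCCCGC for E2F. Among all 32851 promoters, 19.2% held a CHR match, 37.4% a CCAAT match, 7.52% both and 1.84% an E2F match. The 6 genes had 7 promoters, of which 6 held a CHR match, 6 a CCAAT match and 0 an E2F match. For the 4 lists of mitotic genes described later, 50 of 60 genes matched, with 59 promoters, and 59.3% held a CHR match, 59.3% a CCAAT match, 44.1% both and 3.39% an E2F match. Of the 41 genes for origin licensing and DNA synthesis, 35 matched, with 42 promoters, and 19.05% held a CHR match, 57.1% a CCAAT match and 33.3% an E2F match. These shares are a description and a match is not a shown binding site.

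Printed here are the 250 bases before the start of 3 genes of the rule and of 2 MCM helicase genes, read along each gene's own strand, as examples of stretches that hold the searched letters. Capitals mark CHR, CCAAT and E2F matches on either strand. The Top2a stretch (chr11:99024190-99024439, minus strand) held 4 CHR and 6 CCAAT matches, the Ube2c stretch (chr2:164769679-164769928, plus strand) 1 and 6, and the Mki67 stretch (chr7:135716380-135716629, minus strand) 2 and 3, and none of the 3 held an E2F match. The Mcm5 stretch (chr8:75109259-75109508, plus strand) held 2 overlapping E2F and 2 CCAAT matches, and the Mcm6 stretch (chr1:128359706-128359955, minus strand) 3 E2F and 2 CCAAT matches, with no CHR match in either. Other genes of both kinds had fewer matches. The stretches of Cenpf and Nusap1 and that of 1 of the 2 Prc1 starts held no CHR match, Nusap1 and Tyms also held no CCAAT match, and none of Pcna, Rrm2 and Tyms held an E2F match in the same 250 bases.
Top2a: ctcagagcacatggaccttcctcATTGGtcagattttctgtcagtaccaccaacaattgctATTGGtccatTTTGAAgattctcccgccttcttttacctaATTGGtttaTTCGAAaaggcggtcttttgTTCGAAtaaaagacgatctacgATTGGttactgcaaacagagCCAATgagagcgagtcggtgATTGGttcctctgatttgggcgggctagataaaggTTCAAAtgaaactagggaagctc
Ube2c: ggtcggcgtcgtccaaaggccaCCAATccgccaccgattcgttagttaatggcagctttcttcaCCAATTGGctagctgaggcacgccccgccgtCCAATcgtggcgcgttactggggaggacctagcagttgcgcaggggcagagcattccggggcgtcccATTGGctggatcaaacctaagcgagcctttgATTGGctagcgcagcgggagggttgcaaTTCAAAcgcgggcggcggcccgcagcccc
Mki67: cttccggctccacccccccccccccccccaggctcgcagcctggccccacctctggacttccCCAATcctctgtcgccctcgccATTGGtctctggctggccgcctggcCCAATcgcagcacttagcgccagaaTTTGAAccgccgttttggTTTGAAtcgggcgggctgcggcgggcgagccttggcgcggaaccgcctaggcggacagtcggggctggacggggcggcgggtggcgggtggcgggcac
Mcm5: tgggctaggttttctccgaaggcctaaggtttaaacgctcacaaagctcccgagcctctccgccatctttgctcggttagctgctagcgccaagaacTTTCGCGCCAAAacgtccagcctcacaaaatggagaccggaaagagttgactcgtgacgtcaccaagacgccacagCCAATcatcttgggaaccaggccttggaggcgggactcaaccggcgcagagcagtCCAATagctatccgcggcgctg
Mcm6: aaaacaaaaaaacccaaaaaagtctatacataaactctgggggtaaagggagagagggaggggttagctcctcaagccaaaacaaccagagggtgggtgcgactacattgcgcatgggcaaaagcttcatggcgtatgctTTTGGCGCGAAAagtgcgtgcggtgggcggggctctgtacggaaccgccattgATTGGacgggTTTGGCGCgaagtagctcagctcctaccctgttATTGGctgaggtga

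Cycling cells made up a larger share of the basal keratinocytes in the LNR pair than in the diet pair, but only with the upper limits on depth in place. They were 15.3% (14.4 to 16.2) of basal keratinocytes in the SAR131675 library, 13.9% (13.0 to 14.9) in the diet control, 19.96% (18.6 to 21.4) in LNR and 20.8% (19.5 to 22.1) in the LNR control. Without the upper limits the shares were 22.2%, 21.2%, 20.7% and 21.3%. With every cell thinned to 3000 UMIs and no upper limits they were 15.5%, 15.3%, 15.1% and 16.2%, and all 4 intervals overlapped.

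Within each pair the shares were close under the rule as given. The log2 ratio of SAR131675 to diet control was 0.14 (0.0038 to 0.27), and it was 0.06 (-0.03 to 0.16) without the upper limits. With a keratin limit of 0.5% it was 0.18 (0.07 to 0.29). For LNR to LNR control it was -0.06 (-0.19 to 0.07), -0.04 (-0.17 to 0.09) without the limits and -0.04 (-0.18 to 0.09) without mixed cells, but -0.15 (-0.26 to -0.05) with a keratin limit of 0.5%. Per kept cell of any type the LNR share was lower, at 3.37% against 4.00% (log2 ratio -0.25, -0.39 to -0.10), which also depends on how many other cells each digest gave.

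**Figure D2:**
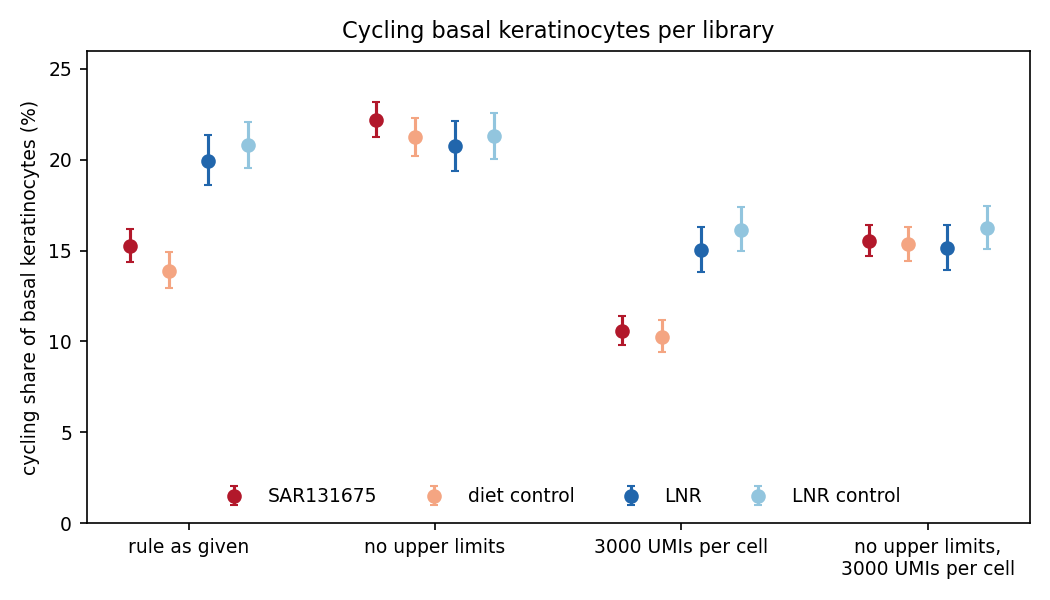
Cycling cells as percent of basal keratinocytes in each library (y axis) under 4 treatments of depth (x axis), namely the rule as given, no upper limits on genes and UMIs, cells thinned to 3000 UMIs, and both together; bars are exact 95% counting intervals. The gap between the diet pair and the LNR pair (15.3% and 13.9% against 19.96% and 20.8%) is not seen without the upper limits (22.2%, 21.2%, 20.7% and 21.3%).

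The cycling cells differed in whether S phase or mitotic genes led. The calls below depend on the number and level of the genes in each list, so they are not measured shares of cells in each phase. Cells thinned to 3000 UMIs were called S-leading when the lists of origin licensing and DNA synthesis together had more UMIs than the lists of mitotic kinases and kinetochore genes, and mitosis-leading in the opposite case. S-leading cells were 39.5% (36.2 to 42.8), 44.9% (41.0 to 48.8), 46.7% (42.9 to 50.6) and 50.7% (47.3 to 54.2). Mitosis-leading cells were 57.8%, 52.7%, 49.6% and 45.4%. In both pairs the S-leading share was lower in the treated library, with intervals that overlapped. Without the upper limits the S-leading shares were 39.4%, 43.0%, 47.2% and 51.2%. Free RNA from other cells also enters such calls and its part was not tested.

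The 6-gene rule leaned towards late cells but also took in cells with S phase genes. Among the cycling cells, 53.1%, 56.9%, 53.5% and 56.6% had a UMI of at least 4 of the 6 S phase genes Mcm5, Mcm6, Pcna, Rrm2, Tyms and Gins2. In endothelial cells that share was 1.71%, 0.759%, 2.63% and 2.27%. It depended strongly on depth, and after thinning to 3000 UMIs it was 9.36%, 10.4%, 8.83% and 10.8% of cycling cells. A further 415, 318, 250 and 303 basal cells met the S phase criterion without meeting the 6-gene rule, which was 8.21%, 7.48%, 9.32% and 9.62% of the basal cells outside it, and 0.817%, 0.427%, 1.18% and 1.64% after thinning. One or both criteria were met by 22.2%, 20.3%, 27.4% and 28.4% of basal keratinocytes without thinning.

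All 6 rule genes were higher in mitosis-leading than in S-leading cells of every library. Cenpf had 257, 293, 239 and 269.8 CPM in S-leading and 1164, 1199.7, 895 and 904 CPM in mitosis-leading cells. Top2a had 1089.6, 1258, 802 and 852 CPM against 1443, 1558, 1064 and 1038 CPM, and Mki67 had 788, 1029, 478 and 504 CPM against 1207, 1565, 801 and 785 CPM. Nusap1 had 324, 368, 342 and 421 CPM against 609.9, 604, 584 and 596 CPM, and Prc1 had 449, 488, 340.4 and 376 CPM against 844, 807, 571 and 587 CPM. Ube2c had 215, 201, 261 and 255 CPM in S-leading and 785, 741, 722 and 728 CPM in mitosis-leading cells.

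Outside the 4 lists used for these calls, 4394 genes had enough UMIs to compare, and 23 (0.523%) were at least 2-fold higher in mitosis-leading and 16 (0.364%) in S-leading cells of all 4 libraries. Ccnb1, cyclin B1, the cyclin that drives entry into mitosis, had 65.5, 73.4, 63.3 and 69.6 CPM in S-leading and 276, 284, 218 and 197 CPM in mitosis-leading cells. Aspm, a spindle pole protein, had 88.6, 99.7, 54.1 and 68 CPM against 357, 354, 204 and 200.2 CPM. Cdkn3, a phosphatase that acts on CDKs, had 33.8, 28.02, 42.2 and 49.6 CPM against 152, 129, 168 and 173 CPM. The same direction was seen for Arl6ip1, a membrane-shaping protein of the endoplasmic reticulum, at 416, 408, 321 and 331 CPM against 1405, 1374, 953 and 955 CPM. Cdc25c, Dlgap5, Gas2l3, Pimreg, Serpinb8 and Ifi27l2a completed the 10 genes with the largest ratios.

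On the S-leading side stood Ccne2, cyclin E2, a partner of CDK2 at the start of S phase, with 172, 140.3, 72.6 and 69.02 CPM in S-leading and 15.3, 17.97, 10.6 and 10.3 CPM in mitosis-leading cells. Cdk2 itself had 72.8, 74.6, 47.4 and 43.9 CPM against 31.1, 25.8, 21.7 and 20.6 CPM. Slfn9, of the Schlafen family, had 143, 139, 53.04 and 54.1 CPM against 30.96, 30.8, 13.2 and 17.8 CPM. Dtl, Rpa1, Dck, Tcf19, Syce2, Siva1 and Arl6ip6 made up the rest of the top 10. Dtl targets licensing factors for destruction during replication, Rpa1 binds single-stranded DNA, and Dck makes DNA precursors. These genes were not used for the calls, but the calls and the genes come from the same cells, so they are given without a test.

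Against resting basal keratinocytes of the same library, 560 of 10859 genes (5.16%) were at least 2-fold higher in cycling cells in all 4 libraries, and 250 (2.3%) were at least 2-fold lower. A gene was compared when it had at least 50 UMIs in each library. This is the contrast the rule itself drew, so it describes the cells and is not a test. The median log2 ratio over all compared genes lay between -0.14 and -0.04. List members below are counted at the same 2-fold in all 4 libraries.

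S phase lists were high almost throughout. Of the origin licensing genes, 14 of the 15 compared were higher, and of the DNA synthesis genes 24 of 25. Their median log2 ratios were 1.80 to 2.83 and 2.09 to 2.60 over the 4 libraries. Pcna, the sliding clamp of DNA polymerase, had 269.7, 273, 257 and 247 CPM in cycling cells and 64.1, 62.1, 73.6 and 71.8 CPM in resting cells. Rrm2, a subunit of ribonucleotide reductase, had 209.9, 203, 134 and 129.9 CPM against 7.65, 7.24, 5.46 and 5.69 CPM, and each of the 4 cycling values lay above each of the resting ones. Tk1, thymidine kinase, had 153, 181, 169 and 177 CPM against 12.3, 12.7, 18.8 and 19.3 CPM. Gmnn, geminin, which blocks a second round of licensing, had 142, 141, 126 and 112 CPM against 15.7, 12.02, 17.6 and 15.9 CPM. Mcm6 was the flattest of those named, at 80.9, 93.3, 80.7 and 82.9 CPM against 27.6, 30.3, 36.2 and 39.99 CPM.

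Histone genes of the replication-dependent clusters, whose mRNA normally lacks a poly(A) tail, were caught in part by the poly(A)-based 3′ kit. Of 73 listed, among them linker histones outside the clusters such as H1f0 and H1f10, 39 could be compared and 35 were higher, with median log2 ratios of 3.89 to 4.16. H1f5, a linker histone, had 748, 978, 1082 and 1199.7 CPM in cycling and 14.7, 20.3, 21.3 and 28.1 CPM in resting cells. The replication-independent variant H2az1 had 2065, 1896, 2185 and 2217 CPM against 306, 272, 355 and 351 CPM. Histone genes are near-identical copies, so reads may be split among them.

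Mitotic lists stood furthest from resting cells. All 16 kinetochore and checkpoint genes, all 23 spindle genes, 13 of 14 genes of mitotic kinases and mitotic exit and 5 of 7 cytokinesis genes were higher. Median log2 ratios for these lists were 6.00 to 6.57, 5.28 to 5.59, 5.85 to 6.70 and 5.42 to 5.65. Birc5, survivin, of the chromosomal passenger complex, had 386, 372, 390.1 and 398 CPM in cycling and 1.84, 1.798, 2.59 and 2.44 CPM in resting cells. Cenpa, the histone H3 variant of centromeres, had 371, 339, 284 and 274 CPM against 3.74, 2.41, 4.02 and 3.66 CPM. Cdc20, which activates the anaphase-promoting complex, had 284, 269.6, 192 and 189 CPM against 3.98, 2.98, 3.66 and 2.305 CPM. These genes were nearly silent in resting cells. Some others were not, for example Tubb5, a beta-tubulin, with 1765, 1932, 1526 and 1589.6 CPM against 201, 164, 182 and 172 CPM. Stmn1, stathmin, which destabilises microtubules, had 1432, 1357, 1508 and 1498 CPM against 69.5, 47.6, 81.1 and 86.1 CPM. Anln, anillin, of the contractile ring, had 671, 737, 316 and 329.6 CPM against 30.9, 35.8, 13.01 and 14.03 CPM.

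All 16 condensin and chromatin genes were higher, with median log2 ratios of 2.91 to 3.12. Smc4, a condensin subunit, had 706, 700.2, 506 and 469.5 CPM in cycling and 91.5, 91.5, 55.97 and 53.7 CPM in resting cells. Hmgb2, a DNA-bending chromatin protein, had 2469.8, 2072, 3370.1 and 3388 CPM against 227, 198, 379 and 393 CPM.

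Over all genes, those with the largest ratios were ones with very few UMIs in resting cells, namely Hmmr, Aspm, H2ac10, Aurkb, Esco2, Kif11, Mxd3, Iqgap3, Birc5 and H3c3. Hmmr, which organises spindle microtubules, had 265, 243, 161 and 162 CPM in cycling cells and 0.693, 0.5701, 0.431 and 0.542 CPM in resting cells. Aurkb, the Aurora B kinase of the chromosomal passenger complex, had 118, 128, 112 and 119 CPM against 0.485, 0.395, 0.575 and 0.474 CPM. Mxd3, a relative of the MYC antagonist MAD, had 61.3, 57.7, 56.3 and 55.99 CPM against 0.346, 0.132, 0.144 and 0.0678 CPM.

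Cyclins and CDKs divided by phase of the cycle. Of 18, 12 were higher and 1 was lower. Cdk1, the mitotic CDK, had 246, 267, 255 and 256 CPM in cycling and 2.63, 1.84, 4.74 and 4.68 CPM in resting cells. Ccna2, cyclin A2, had 238, 222, 170.3 and 159 CPM against 1.73, 1.096, 1.44 and 1.49 CPM, and Ccnb2, cyclin B2, had 244, 223, 153 and 149 CPM against 1.45, 1.403, 1.15 and 1.42 CPM. Of the D-type cyclins, which link growth signals to the start of the cycle, 2 of 3 ran the other way. Ccnd2, the 1 gene of the list that was at least 2-fold lower in all 4 libraries, had 123, 144, 91.4 and 91.01 CPM in cycling and 487, 567, 323 and 312 CPM in resting cells. Ccnd1 was also lower in each library, with 221, 244, 159 and 162 CPM against 413, 397, 271 and 277 CPM (log2 -0.90 to -0.70). Ccnd3 lay at similar levels in both, with 25.8, 24.98, 28.4 and 31.7 CPM against 22.1, 26.01, 24.7 and 25.1 CPM.

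Among the transcription factors of the cycle, 7 of 10 compared were higher. Foxm1, which drives the mitotic programme, had 46.02, 56.4, 55.2 and 45.7 CPM in cycling and 0.4503, 0.614, 0.647 and 0.203 CPM in resting cells. Myc was lower in each library, with 51.3, 52.97, 56.3 and 48.97 CPM against 90.2, 89.1, 94.6 and 91.5 CPM.

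Inhibitors of the cycle were mostly at similar levels, and 3 of the 16 compared were at least 2-fold higher. Cdkn2d (p19Ink4d), an inhibitor of CDK4 and CDK6, had 205, 165, 160.4 and 159 CPM in cycling and 16.4, 12.7, 15.7 and 15.5 CPM in resting cells, with log2 ratios of 3.35 to 3.70. Its relative Cdkn2c (p18Ink4c) had 123, 115, 74.6 and 74.1 CPM against 15.4, 15.96, 13.1 and 12.5 CPM. Rbl1 (p107), the pocket protein that represses E2F targets, had 121, 128, 62.6 and 59.5 CPM against 25.01, 21.2, 9.63 and 10.6 CPM. Cdkn1b (p27Kip1) was slightly higher, with 131, 143, 81.4 and 79.7 CPM against 105, 101, 60.2 and 60.1 CPM. Cdkn1a (p21Cip1) was lower, with 109, 113, 59.1 and 54.4 CPM against 129, 117, 97.4 and 85.2 CPM, and Btg1, an antiproliferative gene, was lower with 221, 191, 189.6 and 170.3 CPM against 356, 326, 299 and 299 CPM.

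**Figure D3:**
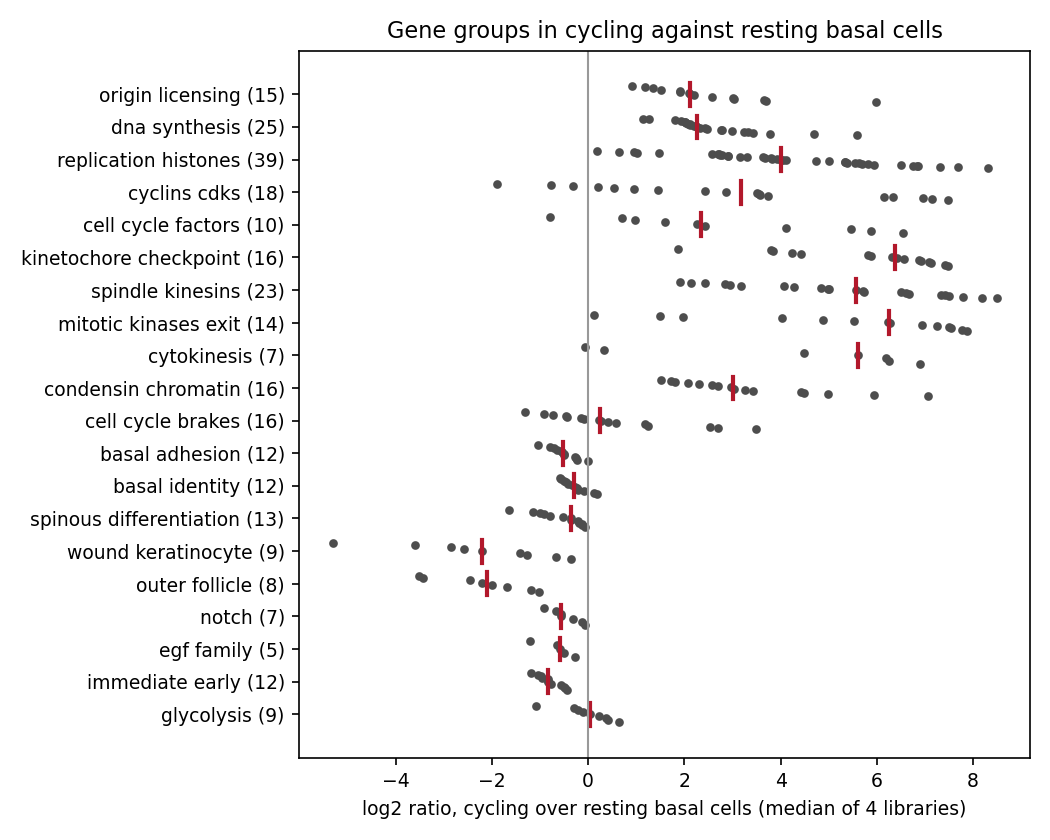
Log2 ratio of CPM in cycling over resting basal keratinocytes (x axis) for the compared genes of each list (y axis, number of genes in brackets). Each point is a gene's median over the 4 libraries and the red line is the list's median; the 6 rule genes are left out. Mitotic lists have library medians from 5.28 to 6.70, S phase lists from 1.80 to 2.83, and the outer follicle and wound lists lie below 0.

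Genes of attachment to the basement membrane were lower in cycling cells. None of the 12 passed 2-fold, but 11 of 12 were lower in all 4 libraries by any amount, as were 42.3% of all compared genes, with median log2 ratios of -0.68 to -0.46. Dst (dystonin), which ties keratin filaments to hemidesmosomes, had 559, 658, 320.2 and 325 CPM in cycling and 1192, 1599, 642 and 650.1 CPM in resting cells. Col17a1 (collagen XVII), which spans the membrane at hemidesmosomes, had 1021, 1077, 811 and 772 CPM against 1461, 1638, 1119.7 and 1035 CPM. Of the 12 genes of basal identity, 10 were lower in all 4 libraries, with medians of -0.45 to -0.20, and these included Trp63, at 671, 711, 293 and 287 CPM in resting cells. The early differentiation list had 12 of 13 genes lower in all 4 libraries, 1 of them by at least 2-fold. Klf4, a barrier-forming transcription factor, had 277, 329, 327 and 332 CPM in cycling and 449, 553, 596 and 589.6 CPM in resting cells. Since the cycle genes take up more of the UMIs in cycling cells, small negative log2 values should be read against the overall median of -0.14 to -0.04.

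Immediate early genes respond to signals and also to tissue digestion. They were lower in all 4 libraries for 12 of 12, against 42.3% of all compared genes, with medians of -0.87 to -0.69. Fos had 135, 196, 370.2 and 385 CPM in cycling and 298, 328, 801 and 746 CPM in resting cells. Jun had 145, 163, 257 and 260.1 CPM against 245, 298, 467 and 460.1 CPM. None of them passed 2-fold in all 4 libraries. Egfr, the epidermal growth factor receptor, was lower too, with 236, 249.6, 49.3 and 45.4 CPM against 349, 393, 71.2 and 68.3 CPM, and Hes1, a Notch target, had 118, 139, 182 and 179 CPM against 183, 186, 257 and 352 CPM. Of the 9 glycolysis genes compared none was higher by 2-fold, with medians of 0.02 to 0.11, and Gapdh had 728, 769.96, 662 and 683 CPM against 553, 558, 523 and 503 CPM.

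Few cycling cells had high levels of wound keratins. Of 9 compared genes of the wound list, 6 were at least 2-fold lower, with medians of -2.27 to -1.86. Krt6a, a keratin of activated epidermis and of the nail bed and follicle, had 139, 91.4, 166 and 99.9 CPM in cycling and 671, 442, 578 and 445 CPM in resting cells. Krt17 had 102, 66.8, 284 and 237 CPM against 849, 602, 1031 and 1012 CPM, and Krt16 had 13.3, 12.02, 15.8 and 6.82 CPM against 160.02, 90.96, 237 and 84.4 CPM. Of the cycling cells, 2, 0, 4 and 4 had at least 1% of their UMIs from Krt6a, Krt16 and Krt17 together, which was 0.220%, 0%, 0.598% and 0.484%. The 0 of 687 in the diet control allows a share of up to 0.437% by the limit of 3 counts, and up to 0.536% by the exact interval. In resting cells the share was 4.30%, 2.30%, 3.90% and 3.74%. Seen the other way, 1.26%, 0%, 4.44% and 3.77% of the 159, 68, 90 and 106 basal cells in this state were cycling, against 15.7%, 14.1%, 20.4% and 21.3% of the rest. Without the upper limits 3.63%, 1.19%, 5.32% and 3.70% of them were cycling.

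Outer follicle genes were likewise lower. Of 8 genes, 7 were at least 2-fold lower in all 4 libraries, with medians of -2.30 to -1.91. Sox9, a transcription factor of the outer root sheath, had 29.97, 34.8, 75.4 and 64.1 CPM in cycling and 168, 142, 197 and 252 CPM in resting cells. Krt79, a keratin of the upper follicle and sebaceous duct, had 14.6, 10.5, 85.1 and 92.3 CPM against 226, 250.2, 476 and 703 CPM. Defb6, a beta-defensin, had 11.3, 10.1, 292 and 295 CPM against 209.5, 244, 1286 and 2045 CPM, and both genes were higher in the LNR pair than in the diet pair. Lgr5, a receptor for R-spondins that marks follicle stem cells, had 6.3, 6.95, 4.01 and 3.11 CPM against 44.1, 39.9, 18.5 and 16.7 CPM. Cells with 3 or more of these genes were 13.4%, 14.4%, 15.8% and 14.5% of the cycling cells and 27.9%, 24.3%, 27.5% and 29.3% of the resting cells, although the cycling cells had more UMIs each. In endothelial cells the share was 3.31%, 2.66%, 5.26% and 8.95%. Among basal cells in this state, 8.86%, 10.0%, 13.8% and 13.1% were cycling, against 17.2%, 14.9%, 21.8% and 23.1% of the rest. The gap was smaller in the diet pair without the upper limits, with 19.9%, 20.4%, 15.98% and 14.5% in the state against 23.0%, 21.5%, 22.2% and 23.4% of the rest.

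The 10 genes with the lowest ratios of cycling to resting cells were Krt6b, Krt16, Wfdc18, Sprr1a, Krt79, Shisa2, Lgr5, Defb6, Ndrg2 and Scrg1. Sprr1a, a cornified envelope precursor, had 10.2, 6.39, 8.38 and 14.9 CPM in cycling and 76.5, 90.04, 57.99 and 83.7 CPM in resting cells. Shisa2, which holds back WNT and FGF receptors, had 4.38, 5.45, 6.85 and 5.22 CPM against 29.5, 25.9, 34.1 and 29.96 CPM. Wfdc18, of the whey acidic protein family, had 3.45, 3.94, 2.12 and 3.21 CPM against 34.01, 27.6, 13.9 and 36.9 CPM.

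Another state was defined by 3 or more follicle and nail matrix genes, such as Hoxc13, Dlx3, Foxn1 and Msx2. It held 4.83%, 3.20%, 2.09% and 1.57% of cycling cells and 1.84%, 1.22%, 0.747% and 0.323% of resting cells. In endothelial cells the share was 0.961%, 0.506%, 0.986% and 1.51%, which was above the resting share in both LNR libraries and close to the cycling share in the LNR control. Among the 161, 90, 32 and 25 basal cells in this state, 27.3%, 24.4%, 43.8% and 52.0% were cycling, against 14.9%, 13.7%, 19.7% and 20.6% of the rest. With no upper limits 47.1%, 47.8%, 45.9% and 58.8% were cycling, against 20.998%, 20.1%, 20.5% and 20.97% of the rest, and the 4 libraries lay closer together. This share is not free of depth, since a cell with more UMIs more often shows 3 genes, and after thinning 1, 0, 1 and 1 cycling cells were left in the state. Summed levels gave no common direction. Hoxc13, a homeobox gene of hair and nail, was lower in cycling cells, with 40.1, 32.6, 19.8 and 19.4 CPM against 70.8, 61.2, 30.6 and 29.5 CPM. Foxn1, a forkhead gene of hair and nail matrix, was higher, with 7.23, 6.76, 3.895 and 3.11 CPM against 4.399, 5, 2.802 and 2.101 CPM. Cells with at least 1% of UMIs from the suprabasal keratins Krt1 and Krt10 were 1.21%, 1.75%, 0.747% and 0.726% of cycling and 2.07%, 2.79%, 1.44% and 1.52% of resting cells, and in endothelial cells the share was 0.854%, 3.04%, 2.85% and 4.96%. When the upper limits were dropped it was 2.11%, 2.96%, 1.56% and 0.933% of cycling cells and 2.19%, 2.92%, 1.44% and 1.52% of resting cells.

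The next comparison asked whether cycling keratinocytes of mice fed SAR131675 differed from those of diet controls. With 1 library each, it describes those libraries. Log2 ratios of the pairs given with an interval, and those of resting cells, are plain ratios of CPM, and the others carry a prior of 0.5 UMIs in each library. Of 11544 genes with at least 50 UMIs in the pair, 148 (1.28%) were at least 1.5-fold higher and 380 (3.29%) at least 1.5-fold lower in SAR131675. The median gene had a log2 ratio of -0.08, and after scaling to that median 223 were higher and 251 lower, so the share of higher genes went from 28.0% to 47.0%. The cell-cycle programme was close to level. None of the genes for licensing, DNA synthesis, cyclins, inhibitors, factors, kinetochore, spindle, mitotic kinases, cytokinesis or condensin passed 1.5-fold, and the list medians lay between -0.18 and 0.04. Without the upper limits the medians lay between -0.05 and 0.21, and 9 of the 10 were above 0.

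Some cycle genes nonetheless lay off the median gene beyond counting error. Dnmt1, the maintenance DNA methyltransferase, had 178 and 229 CPM and a log2 ratio of -0.36 (95% interval -0.44 to -0.28). Cdkn2d went the other way, with 205 and 165 CPM and 0.31 (95% interval 0.23 to 0.40).

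Genes of the histone list were mostly lower in SAR131675. Of 60 compared, 53 were lower in SAR131675, 4 of them by 1.5-fold, against 7382 of all 11544 genes lower and 3.29% lower by 1.5-fold. Their median log2 ratio was -0.32, and it was -0.27 without the upper limits, -0.44 within S-leading cells, -0.19 within mitosis-leading cells and -0.25 in resting basal cells. H1f4 had 574 and 809.8 CPM, a log2 ratio of -0.50 (95% interval -0.54 to -0.45). H4c4 had 372 and 522 CPM, a log2 ratio of -0.49 (95% interval -0.55 to -0.44). In the LNR pair the median was -0.12, or -0.18 without mixed cells, with 37 of 51 lower and 9 lower by 1.5-fold, against 4927 of all 10446 genes lower and 1.36% lower by 1.5-fold, and the genes with the larger ratios were others. H1f4 had 477 and 494 CPM there, a log2 ratio of -0.05 (95% interval -0.11 to 0.01) and of -0.07 without mixed cells. H2ac8 had 209 and 316 CPM in the LNR pair, a log2 ratio of -0.60 (95% interval -0.69 to -0.52) that was -0.63 without mixed cells, and 218 and 221 CPM in the diet pair, a log2 ratio of -0.02 (95% interval -0.10 to 0.05). The S-leading share of the cells was also lower in the treated library of each pair, as given above.

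Several of the 5 genes with the largest ratios in each direction came from few cells. Krt42, a keratin related to Krt17, had 29.04 and 7.42 CPM, but 99.8% and 97.5% of its UMIs were in 5 cells of each library. Krt9, the keratin of footpad skin, had 12.3 and 2.16 CPM from 62 and 14 cells, a log2 ratio of 2.51 (95% interval 1.88 to 3.21) that was 0.89 without the upper limits. Spink12, a protease inhibitor, had 7.56 and 40.3 CPM, with 98.4% of the control's UMIs in 5 cells, and its log2 ratio went from -2.41 to 0.62 without the upper limits. Its relative Spink6 went from -2.20 to 1.33. Col1a1 had 12.7 and 5.73 CPM, and its log2 ratio was 1.14, or 0.73 without mixed cells and 0.37 without the upper limits.

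A smaller set was spread over many cells. Tspear, a protein linked to tooth and hair development, had 77.5 and 32.4 CPM, found in 285 and 132 cells, a log2 ratio of 1.26 (95% interval 1.08 to 1.44). In resting cells it had 134 and 73.1 CPM (log2 ratio 0.87). Vsnl1, a calcium sensor, had 16.3 and 7.701 CPM in 134 and 56 cells, a log2 ratio of 1.08 (95% interval 0.72 to 1.46). Zbtb16, a zinc finger repressor that responds to glucocorticoids, had 11.5 and 27.5 CPM in 129 and 192 cells, a log2 ratio of -1.26 (95% interval -1.54 to -0.99). It was at 29.4 and 60.96 CPM in resting cells (log2 ratio -1.05), and the cycling cells' ratio was -1.25 without the upper limits. Zbtb16 also differed outside the keratinocytes: 16.3% and 32.9% of endothelial cells had a UMI. Tatdn2 had 8.36 and 17.9 CPM in 114 and 162 cells, a log2 ratio of -1.10 (95% interval -1.44 to -0.77). Gm19951, an unnamed transcript, had 61.4 and 129.9 CPM in 520 and 553 cells, a log2 ratio of -1.08 (95% interval -1.20 to -0.96). Without the upper limits the log2 ratios of Tspear, Vsnl1, Tatdn2 and Gm19951 were 0.98, 0.61, -0.74 and -0.82. A Tspear UMI was found in 1.07% and 1.14% of endothelial cells and a Gm19951 UMI in 68.3% and 78.4%. In cycling cells of LNR and its control Gm19951 had 0 and 0 UMIs, and Tspear had 1.18 and 1.71 CPM. Vsnl1 had 8.38 and 8.63 CPM there, Zbtb16 4.01 and 3.71, and Tatdn2 9.68 and 8.43. The processing also differed between the pairs, and the kit version may have differed too. Their part was not tested.

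The same question was asked of lymph node removal against its control. Of 10446 genes, 166 (1.59%) were at least 1.5-fold higher in LNR and 142 (1.36%) at least 1.5-fold lower, and without mixed cells 137 and 112. The median gene had a log2 ratio of 0.01. Of the cell-cycle lists, 1 of 25 DNA synthesis genes passed 1.5-fold, and medians lay between -0.05 and 0.09 (-0.06 to 0.05 without the upper limits, -0.06 to 0.10 without mixed cells). Of the 10 genes with the largest ratios, some were known from other cell types and sat mostly in mixed cells. Il1b had 26.6 and 2.31 CPM with 91.6% of the LNR library's UMIs in mixed cells, and its log2 ratio was 3.497, or 2.37 without mixed cells, where 23 UMIs were left in the pair. S100a9, a neutrophil and wound keratinocyte gene, had 24.4 and 2.61 CPM with 91.8% there, and its log2 ratio of 3.20 became -0.23 without mixed cells. S100a8 behaved alike, from 2.36 to -0.73. On the lower side, Rgs5, a pericyte gene and itself 1 of the 4 mural markers that defined mixed cells, had 1.06 and 22.8 CPM with 89.4% of the control's UMIs in mixed cells, and its log2 ratio went from -4.35 to -1.66 without them, with 30 UMIs left. Timp1, with 1.89 and 18.8 CPM, went from -3.27 to 0.88, and Fabp4, with 5.67 and 29.3 CPM, from -2.36 to 0.42. Ecrg4 had 25.5 and 0.803 CPM, found in 15 and 7 cells, with 95.4% of the LNR UMIs in 5 cells. Krt9 had 4.13 and 25.1 CPM, found in 12 and 14 cells, with 95.6% of the control's UMIs in 5 cells, and Cxcl2 and Hbb-bt were as concentrated, at 89.9% and 90.1%. These 4 kept their direction without mixed cells, with log2 ratios of 5.25 for Ecrg4, -2.63 for Krt9, 4.01 for Cxcl2 and -2.34 for Hbb-bt. Haemoglobin genes did not define mixed cells. Of the control's UMIs, 0 of 202 for Hbb-bt and 2 of 250 for Krt9 lay in mixed cells, so these ratios had little room to change.

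The wound list held both higher and lower genes in each pair. In the diet pair, 4 of 8 compared genes were at least 1.5-fold higher in SAR131675 and 2 lower, against 1.28% and 3.29% of all genes. In the LNR pair 4 were higher and 1 lower, against 1.59% and 1.36% of all genes, and 2 of the 4 were S100a8 and S100a9, whose UMIs lay mostly in mixed cells. The list's median log2 ratio was 0.37 in the diet pair and 0.50 in the LNR pair, where it was 0.12 without mixed cells. Krt6a, the 1 compared gene of the list higher by 1.5-fold in both pairs, had 139, 91.4, 166 and 99.9 CPM. Its log2 ratio was 0.61 (95% interval 0.50 to 0.72) for SAR131675 and 0.73 (95% interval 0.61 to 0.85) for LNR, the latter also 0.73 without mixed cells. A UMI of Krt6a, Krt16 or Krt17 was found in 48.1%, 34.8%, 37.2% and 34.3% of cycling cells, so a minority of cells held these UMIs. By the values given above, resting cells also had more Krt6a in the treated library of each pair. Sprr1a had log2 ratios of 0.68 (95% interval 0.26 to 1.11) and -0.83 (95% interval -1.25 to -0.41), in opposite directions, with -0.97 in the LNR pair without mixed cells. Krt16 differed in the LNR pair, by 1.21 (95% interval 0.78 to 1.66) or 0.94 without mixed cells, and less in the diet pair, by 0.14 (95% interval -0.19 to 0.47).

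The pairs shared few genes past 1.5-fold. In both pairs 13 of 10247 genes (0.127%) were higher in the treated library and 11 (0.107%) lower. The first 5 of the higher were Krt42, Cxcl10, Apod, Fxyd5 and Cilp. Krt42 came from 6 and 7 cells in the diet pair and 7 and 8 cells in the LNR pair, and Apod (0.89) and Fxyd5 (1.79) changed sign in the diet pair without the upper limits, to -0.81 and -0.44. In the LNR pair the log2 ratios of Krt42, Cxcl10, Apod, Fxyd5 and Cilp were 2.31, 1.11, 1.42, 0.85 and 0.81, and 2.35, 1.36, 0.49, 1.36 and 0.52 without mixed cells. Cxcl10, an interferon-induced chemokine, had 4.18 and 1.78 CPM in the diet pair, with 90.5% of the SAR131675 UMIs in 5 cells, and 8.498 and 3.91 CPM in the LNR pair. The first 5 of the lower were Dnm3, Pdzrn3, Tfcp2l1, Cul7 and Trp53inp2. Tfcp2l1, a transcription factor of the grainyhead group, had 4.77 and 8.17 CPM in the diet pair, a log2 ratio of -0.78 (95% interval -1.25 to -0.31), and 1.89 and 3.61 CPM in the LNR pair, a log2 ratio of -0.94 (95% interval -1.88 to -0.05). Cul7, a cullin scaffold of ubiquitin ligases, was found in 45 and 57 cells and in 25 and 56 cells, with log2 ratios of -0.74 and -0.88. Without mixed cells the LNR log2 ratios of Dnm3, Pdzrn3, Tfcp2l1, Cul7 and Trp53inp2 were -0.69, -0.97, -1.03, -0.79 and -0.86. Without the upper limits their diet-pair log2 ratios were -0.99, -0.42, -0.07, -0.74 and -0.20. Pdzrn3, Tfcp2l1 and Trp53inp2 were then no longer lower by 1.5-fold in the diet pair. For Trp53inp2 the interval in the diet pair reached 0.03, so it did not exclude equal levels there.

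**Figure D4:**
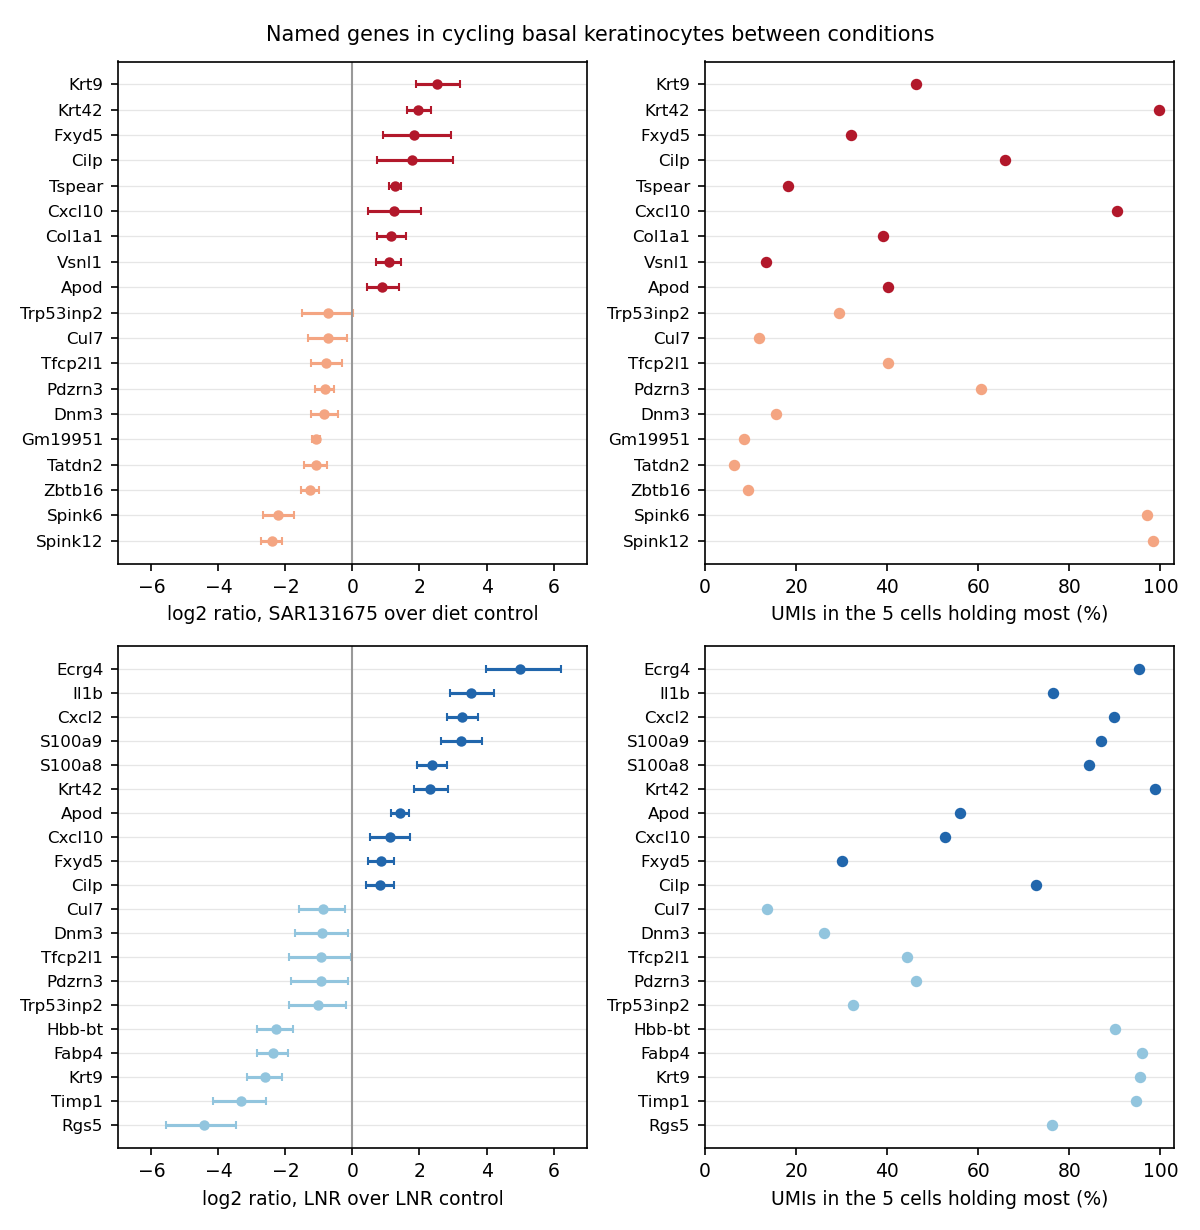
Named genes in cycling basal keratinocytes for SAR131675 over diet control (top) and LNR over LNR control (bottom). Left, log2 ratio of CPM with its 95% counting interval (x axis); right, percent of the gene's UMIs that lay in the 5 cells holding most of them, in the library with the higher level, which sets the colour. Most of the UMIs of Krt42 (99.8%), Spink12 (98.4%) and Ecrg4 (95.4%) lay in 5 cells, while those of Tspear (18.1%) and Zbtb16 (9.56%) were spread.

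One comparison could be tested, since the same 6-gene rule was applied on both of its sides, although it did not select alike there. It asked whether the change from resting to cycling cells was the same in keratinocytes as in mesenchymal cells, in which the same 6 genes and the same limit chose the cycling cells. Mesenchymal cells were those with at least 1% of UMIs from Col1a1, Col1a2 and Col3a1 and under 0.1% from Krt5 and Krt14, and may hold several kinds of cell. There were only 21, 7, 31 and 18 cycling mesenchymal cells, 77 in all, and 1419, 1076, 2269 and 1998 resting ones. Without the upper limits there were 63, 20, 42 and 19 cycling ones, so the limits removed a larger part of them than of the cycling keratinocytes, most of all in the diet pair. At least 4 of the 6 S phase genes were found in 38.1%, 14.3%, 67.7% and 72.2% of the cycling mesenchymal cells kept, and in 53.1% to 56.9% of the cycling keratinocytes. Pdgfra, a fibroblast marker, was found in at least 72.2% of the cycling ones in each library and in at most 4.23% of cycling keratinocytes. The cycling and resting mesenchymal cells differed in other genes. Dcn had mean CPM of 2563 in cycling and 17614 in resting ones, while Col6a3 had 1432 and 607 and Tnc 379 and 95.6. The differences below may therefore hold a difference in the kind of mesenchymal cell, which was not tested. The interaction of cycling with lineage was tested with edgeR's quasi-likelihood test on 16 sums with the library as a block. The 4 libraries served as replicates, although they were different conditions and the 2 LNR libraries came from the same mice. SEs and p-values rest on a spread pooled over all 16 sums, most of which held far more cells than the cycling mesenchymal sums. They need not cover the spread of the difference between libraries. Taken library by library, it was 2.24, 1.29, 3.44 and 1.73 for Kitl, and -2.19, -2.38, -2.22 and -1.97 for Bok, both described below.

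Of 14823 genes, the log2 change was larger (more positive) in keratinocytes for 535 (3.61%) and smaller for 786 (5.3%) at an adjusted p under 0.05. Leaving out 1 library at a time moved these counts: 326 and 449 were called without SAR131675, 565 and 193 without LNR, 637 and 224 without the LNR control, and 396 and 635 without the diet control. In all 4 of these fits 328 calls were kept. Without the library block 74 and 91 were called, and without the upper limits 1033 and 1751 of 15292. The list counts below should be read against these totals, which in the main fit were 3.61% larger and 5.3% smaller. The genes named below by rank all had the same sign in 4 of 4 libraries and kept their call in each of the 4 fits without 1 library (highest adjusted p = 0.0047).

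Among inhibitors of the cycle, 4 of 17 had a larger change in keratinocytes and none a smaller one, against 3.61% and 5.3% of all genes. Of the 4, 3 kept the call in every leave-out. Dropping the upper limits gave 4 with a larger and 2 with a smaller change. Cdkn2d was higher in cycling cells of both lineages, in keratinocytes as given above, and in mesenchymal cells with 91.7, 104, 109 and 146 CPM in cycling against 35.5, 30.4, 35 and 40.3 CPM in resting cells. The difference of its log2 changes was 1.94 (SE 0.17, adjusted p = 3.59e-06). Cdkn1b had 78.1, 91.2, 47.3 and 59.8 CPM in cycling and 142, 128, 102 and 104 CPM in resting mesenchymal cells, lower in cycling cells of each library, whereas in keratinocytes it was higher, a difference of 1.35 (SE 0.15, adjusted p = 3.19e-05). Cdkn1c (p57Kip2) had mean CPM of 9.41 in cycling and 4.47 in resting keratinocytes, and 25.7 in cycling and 51.3 in resting mesenchymal cells, a difference of 2.39 (SE 0.38, adjusted p = 0.000729). The fourth was Ccng2, with 1.08 (SE 0.29, adjusted p = 0.0252), but its adjusted p reached 0.082 in a leave-out. Cdkn1a did not pass, at 0.84 (SE 0.26, adjusted p = 0.0646).

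The D-type cyclin Ccnd1 went the other way. It had 292, 404, 236 and 108 CPM in cycling and 91.9, 83.7, 68.5 and 74.2 CPM in resting mesenchymal cells, while in keratinocytes cycling cells were lower, a difference of -2.29 (SE 0.21, adjusted p = 4.96e-06). The other two D-type cyclins did not pass, with -1.08 (SE 0.36, adjusted p = 0.0949) for Ccnd2 and 0.45 (SE 0.23, adjusted p = 0.256) for Ccnd3. Cdk6, a kinase partner of Ccnd1, had mean CPM of 76.9 in cycling and 102 in resting keratinocytes, and 82.4 in cycling and 23.97 in resting mesenchymal cells, a difference of -1.78 (SE 0.23, adjusted p = 0.000119). Cks2, a small CDK subunit, had a smaller change in keratinocytes, with a difference of -1.24 (SE 0.14, adjusted p = 3.05e-05), and its relative Cks1b a larger one, with 1.1 (SE 0.17, adjusted p = 0.000458). In the list of cyclins and CDKs, 1 of 18 had a larger change and 5 a smaller one, and 4 of these 6 calls were kept in every leave-out. Without LNR 1 and 3 were called.

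The change of licensing and DNA synthesis genes was smaller in keratinocytes for 6 of 16 and 9 of 25 genes and larger for none. These counts moved with the libraries and limits. They were 1 and 1 without LNR, where 2 DNA synthesis genes had a larger change, and 3 and 3 without the LNR control. Dropping the upper limits made them 13 and 15, with 1 DNA synthesis gene larger. In that setting 1751 of all 15292 genes had a smaller change and 1033 a larger one. Tk1 had mean CPM of 170.1 in cycling and 15.8 in resting keratinocytes, and 122 in cycling and 0.977 in resting mesenchymal cells, a difference of -3.47 (SE 0.38, adjusted p = 9.9e-05) whose highest leave-out adjusted p was 0.0051. Gmnn had mean CPM of 130.1 in cycling and 15.3 in resting keratinocytes, and 116 in cycling and 2.24 in resting mesenchymal cells, a difference of -2.56 (SE 0.32, adjusted p = 0.000194). Mcm5 had mean CPM of 54.7 in cycling and 10.4 in resting keratinocytes, and 53.8 in cycling and 1.93 in resting mesenchymal cells, with a difference of -2.36 (SE 0.52, adjusted p = 0.0142), and its adjusted p reached 0.29 in a leave-out. For Pcna the difference was 0.06 (SE 0.16, adjusted p = 0.915) and for Dut, which breaks down dUTP, 0.18 (SE 0.13, adjusted p = 0.472). Beside this stand the cells behind the means: at least 4 of the 6 S phase genes were found in 2.93%, 2.79%, 3.74% and 3.74% of resting keratinocytes and in 0.141%, 0.0929%, 0.353% and 0.300% of resting mesenchymal cells, whose median UMIs were 9781, 9045, 3913 and 3765.5. The part of depth and of S phase cells among the resting cells was not tested.

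Mitotic lists changed in both directions. Among spindle genes 7 of 23 had a larger and 4 a smaller change, and among mitotic kinases and exit genes 3 and 2 of 14, and none of the kinase and exit calls was kept in every leave-out. With no upper limits 4 spindle genes had a larger and 6 a smaller change, as had 2 and 5 of the kinase and exit genes. Kif11, the kinesin that separates spindle poles, had a difference of 1.32 (SE 0.23, adjusted p = 0.00137), and Tuba1c, an alpha-tubulin, 1.02 (SE 0.18, adjusted p = 0.00187). On the smaller side, Ckap2l, a spindle protein, had -2.59 (SE 0.27, adjusted p = 1.7e-05), and the chromosome kinesin Kif4 had -1.81 (SE 0.25, adjusted p = 0.000186). Anln, of the cytokinesis list, had -1.26 (SE 0.18, adjusted p = 0.000297), and these 5 calls were kept in every leave-out. The rule genes themselves were left out of the calls, but their levels were higher in cycling keratinocytes than in cycling mesenchymal cells of every library. Top2a, for example, had 836, 599.6, 813 and 594 CPM in cycling mesenchymal cells and Ube2c had 190.2, 261, 302 and 403 CPM.

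Immediate early genes were lower in cycling cells of both lineages, and less so in keratinocytes for 5 of 12. None had a smaller (more negative) change in keratinocytes, and 4 kept the call in every leave-out. The count was 10 without the upper limits and 7 without LNR, where 1033 of 15292 and 565 of 14997 genes in all had a larger change. Dusp1, a phosphatase that ends MAP kinase signals, had mean CPM of 142 in cycling and 249.7 in resting keratinocytes, and 136 in cycling and 562 in resting mesenchymal cells, a difference of 1.23 (SE 0.20, adjusted p = 0.00084). Fosb had a difference of 0.98 (SE 0.18, adjusted p = 0.00187), Jund 0.83 (SE 0.17, adjusted p = 0.00402) and Zfp36 0.75 (SE 0.18, adjusted p = 0.0119). The fifth, Egr1, had 0.59 (SE 0.14, adjusted p = 0.0156) and an adjusted p of 0.1 in a leave-out.

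Several genes outside the cycle stood among the strongest. Bok, a BCL2 family member that promotes cell death, was higher in cycling cells of both lineages but less so in keratinocytes. It had 134, 144, 159.8 and 162 CPM in cycling and 100, 116, 125 and 128 CPM in resting keratinocytes, and 136, 130.3, 151 and 149 CPM against 22.4, 21.1, 25.5 and 30.5 CPM in mesenchymal cells, a difference of -2.09 (SE 0.14, adjusted p = 2.58e-07). Dkk3, a secreted Dickkopf family protein, was lower in cycling keratinocytes, with 13.1, 15.97, 10.3 and 9.93 against 37.96, 48.1, 34.3 and 30.7 CPM, and higher in cycling mesenchymal cells, with 95.1, 182, 125 and 108 against 81.4, 85.1, 69.4 and 62.6 CPM. The difference was -2.25 (SE 0.16, adjusted p = 5.19e-07).

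Kitl, the KIT ligand that keratinocytes make for melanocytes, had 49.3, 48.8, 22.2 and 22.4 CPM in cycling and 37.4, 40.9, 17.4 and 15.3 CPM in resting keratinocytes, and 57.7, 117, 11.8 and 44.8 CPM in cycling and 213, 253, 110.4 and 105 CPM in resting mesenchymal cells, a difference of 2.33 (SE 0.24, adjusted p = 1.7e-05). In each library it was lower in cycling than in resting mesenchymal cells and higher in cycling than in resting keratinocytes. Its cycling mesenchymal levels rest on only 17, 9, 5 and 12 UMIs. Its call was lost without the library block (adjusted p = 0.067). The prion protein gene Prnp, the calmodulin gene Calm3 and Efemp1, a matrix fibulin, also had positive differences, of 1.57, 1.22 and 2.94. Among the negative ones, Palld, an actin-bundling protein, had -1.78 and Pfn2, a profilin, -2.30.

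**Figure D5:**
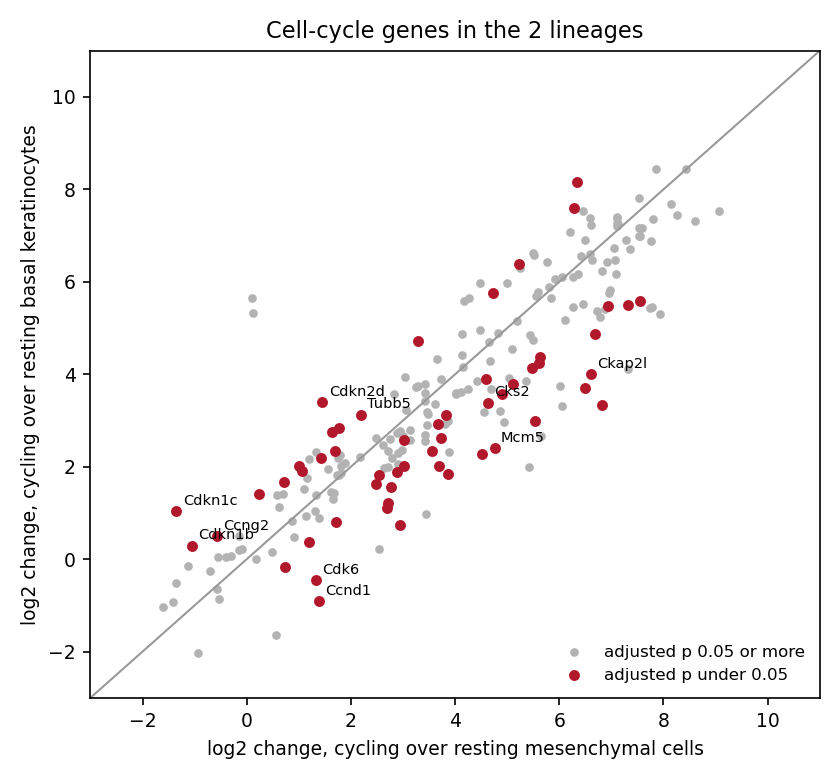
Log2 change from resting to cycling cells in mesenchymal cells (x axis) against basal keratinocytes (y axis) for the genes of the cell-cycle lists without the 6 rule genes, from the edgeR fit; red points have an adjusted p for the difference under 0.05, and the diagonal marks equal change. Cdkn2d (difference 1.94) and Cdkn1b (1.35) lie above the diagonal, Ccnd1 (-2.29) and Mcm5 (-2.36) below it.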

How the data were processed

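Cells of P3 digits in 4 libraries were described as measured with 10x 3′ v3 chemistry. Few barcodes were shared between the diet and LNR pairs, as given above, so a difference between the pairs can also hold a difference in kit version. For each library the authors deposited a filtered matrix of UMI counts, not normalized, over 33696 genes. The submitters' processing notes name Cell Ranger 6.1.2 and GRCm39 for all libraries, and the file headers give Cell Ranger 8.0.1 for the diet pair and 6.1.2 for the LNR pair, so a difference between the pairs can hold a difference in processing. The members and gene lists were chosen with earlier results of these data known.

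Barcodes with 200 to 5500 genes, at most 30000 UMIs and at most 10% mitochondrial UMIs were kept, following the rule that chose the cells. No doublet caller was run; mixed cells were counted instead. The 52 entries that shared a symbol with another entry were kept apart by gene ID, and 2 listed genes were not matched. UMIs were summed over cells of a group and library and scaled to CPM. Ratios used a prior of 0.5 UMIs, except those of a pair with an interval and those of resting cells, and at least 50 UMIs, summed over a pair, or in each library for cycling against resting cells. Intervals at 95% were Clopper-Pearson for shares, exact Poisson for CPM, exact conditional for ratios of CPM and log-scale (Katz) for ratios of shares. All cover counting error only. Mixed cells were defined on fibroblast, endothelial, leukocyte, melanocyte, Schwann and mural markers, and endothelial cells by at least 3 of Pecam1, Cdh5, Kdr, Emcn and Egfl7 with keratins under 1%. Thinning drew 3000 UMIs per cell without replacement (seed 11) and left out shallower cells.

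The interaction was fitted with edgeR 4.0.16 (quasi-likelihood, TMM, Benjamini-Hochberg adjustment, R 4.3.3) on 16 sums with library as block; the 6 rule genes, Krt5, Krt14 and the 3 collagens that set the classes were not called. DESeq2 1.42.0 was an alternative. The code was checked on simulated counts. For the interaction these had the same dispersion in all 16 sums, so the check did not cover a larger spread in sums of few cells. The rest ran in Python 3.11.15 (pandas 2.3.3, numpy 2.4.6, scipy 1.17.1). Promoters came from RefSeq (GRCm38.p6), since no GRCm39 genome was used here, and were matched by symbol.

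Named genes were the 6 rule genes and label markers, up to 5 genes with most UMIs of each list, the 5 largest ratios each way per pair among genes with at least 200 UMIs, up to 5 each way shared by both pairs, the 10 and 10 most extreme by their weakest library for cycling against resting cells (at least 200 UMIs), and the 10 smallest adjusted p each way of the interaction with a level in the lesser lineage at least 0.2 of the other (1 of these is not reported here). Genes named beyond this rule (Ccnd2, Ccnd3, Cdkn1a, Cdkn1c, Cdkn2c, Rbl1, Tk1, Gmnn, Foxn1, Hoxc13, histones and list members of the interaction) were chosen after their values were seen.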

Additional observations from a re-analysis of the deposited data

Results flagged for a closer look

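The genes below, among those with the strongest difference between the 2 lineages in their log2 change from resting to cycling cells, were flagged by a test of the difference itself (edgeR's quasi-likelihood interaction, Benjamini-Hochberg adjusted). Larger in keratinocytes were the changes of Cdkn2d (difference 1.94), Gstm1 (2.73), Kitl (2.33), Itm2b (1.07), Efemp1 (2.94), Prnp (1.57), H2-D1 (1.51), Cdkn1b (1.35) and Calm3 (1.22). Smaller in keratinocytes were those of Bok (-2.09), Dkk3 (-2.25), Bcl11b (-1.74), Palld (-1.78), Tpm2 (-2.10), Atpif1 (-1.33), Ccnd1 (-2.29), Nt5dc2 (-2.54), Rflnb (-1.64) and Pfn2 (-2.30). The direction was the same in 4 of 4 libraries for each of them. Gstm1, Kitl, Itm2b, H2-D1, Bcl11b, Tpm2 and Atpif1 lost the call without the library block, with adjusted p = 0.07, 0.067, 0.11, 0.28, 0.18, 0.14 and 0.65 in that edgeR fit. The cycling mesenchymal sums rest on 21, 7, 31 and 18 cells. For some genes they held few UMIs, with 17, 9, 5 and 12 for Kitl and 12, 0, 11 and 12 for Gstm1. Efemp1 had 27, 6, 5 and 12 there, and Cdkn2d had 8 in the diet control.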

How the results depend on the processing

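The share of basal cells that were cycling depended most on the keratin limit, and then on depth and the upper limits. It was 10.6%, 10.3%, 15.0% and 16.2% after thinning to 3000 UMIs, 22.2% and 21.2% in the diet pair without the upper limits, and 15.3%, 15.1% and 16.2% in the diet control, LNR and LNR control with both. A rule of 3 genes gave 19.8%, 18.3%, 23.0% and 23.6%, and one of 5 genes 12.7%, 12.0%, 18.4% and 18.6%. A keratin limit of 2% gave 5.80%, 5.71%, 8.72% and 8.27%, and one of 0.5% gave 14.5%, 12.8%, 17.9% and 19.9%. The log2 ratio of shares for LNR was 0.0769 with keratin at 2%, -0.15 (-0.26 to -0.05) at 0.5% and -0.25 per kept cell. For SAR131675 it was 0.02 with keratin at 2% and 0.18 (0.07 to 0.29) at 0.5%.

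Counts of genes moved with the minimum of UMIs: for SAR131675, 370 higher and 749 lower with at least 20 UMIs and 29 and 123 with at least 200, and for LNR 465 and 395, and 27 and 22. Scaling to the median gene gave 223 and 251 for SAR131675, and dropping the upper limits 278 and 667. The lower genes against resting cells numbered 118 with at least 200 UMIs, 118 after thinning and 137 without the upper limits. The interaction gave 74 larger and 91 smaller without the library block, 1033 and 1751 without the upper limits, and 326 to 637 and 193 to 635 when each library was left out. Cells with 3 outer follicle genes were 23.3% and 21.7% of cycling cells in the diet pair without the upper limits and 3.61%, 4.73%, 4.94% and 5.34% after thinning, and those with 3 matrix genes 9.74% and 9.44%, and 0.113%, 0%, 0.150% and 0.121%. Reversed without the upper limits (SAR131675) were Spink12 (0.62), Spink6 (1.33), Apod (-0.81) and Fxyd5 (-0.44), and without mixed cells (LNR) S100a8 (-0.73) and Fabp4 (0.42). S100a9 (-0.23) and Timp1 (0.88) also changed sign without mixed cells (LNR), but were then under 50 UMIs. Of the main summaries, 60 moved, among them values given above, and 82 were counted as unchanged. Besides the 6 reversed values of single genes, 349 were counted as unchanged, 37 moved and 7 lost their call. Among the 349 were 183 values of the interaction, for which unchanged means that the call was kept. No paired analysis was possible because each condition had 1 library. Dropping the upper limits together with thinning, the states, interaction and genes against resting cells without the upper limits, and list medians under other limits or within phases were alternatives chosen after seeing the data. The cause of these shifts was not tested. Depth limits genes with few UMIs, and no value covers variation between animals.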
